A study of Mus musculus with 16 samples.

Results

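The genes described here encode the subunits of the mitochondrial respiratory chain and of ATP synthase, as measured in cultured mouse dorsal root ganglia in which the hypoxia-inducible factor HIF-1α was raised or lowered. Members were set by a rule on names, which was chosen with earlier results of these data known. It took every mouse symbol in the array's annotation beginning with Nduf, Sdha to Sdhd, Uqcr, Cycs or Cyc1, Cox4 to Cox8, or Atp5. The rule found 79 genes with 98 probes, and 73 of the 11151 genes that passed the filter on dim probes were members. RNA came from ganglia of CD-1 mouse embryos at embryonic day 13, grown as spot cultures, in which the cell bodies sit together and axons grow outward. Overexpression cultures received, on day 4, lentivirus FUGW carrying human HIF-1α cDNA (4 arrays: 1 uninjured, 2 at 3 h and 1 at 12 h after the cut). Knockdown cultures received lentivirus with MISSION shRNAs against HIF-1α (6 arrays, 2 at each time). Control cultures received a control shRNA (6 arrays, 2 at each time). On day 7 a blade was used to cut the axons, and uninjured cultures were left uncut. The overexpression vector had no control of its own here, so a difference of vector cannot be told apart from HIF-1α in that comparison, and construct and any batch of culture or virus cannot be told apart in either.

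Each respiratory complex is built from many proteins. Complex I takes electrons from NADH and complex II, succinate dehydrogenase, takes them from succinate. Both pass them by way of ubiquinone to complex III, cytochrome c carries them on to complex IV (cytochrome c oxidase), and the proton gradient that results drives ATP synthase, also called complex V. Neurons depend heavily on this chain for ATP, and axons carry mitochondria far from the cell body. HIF-1 is known, in other cells, for directing pyruvate away from mitochondria through the kinase PDK1, and for exchanging the COX4-1 subunit of complex IV for COX4-2. Several complex IV subunits exist as a common form and a tissue form. COX6A2 and COX7A1 are the heart and skeletal muscle forms of their subunits, COX6B2 is a testis form, and COX4I2 is best known from lung.

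All values are array intensities as deposited, already background-subtracted, so a probe near background can fall below 0, and 16 was taken as the lower limit of a clear signal. Differences are given on the log2 scale after an offset of 50 was applied, which understates the change of a dim probe, and each is followed by its standard error. Calls rest on limma's moderated test of the difference averaged over the 3 times, at an adjusted p under 0.05 (Benjamini-Hochberg, over all 11151 genes). Whether the arrays of a group came from separate cultures is not stated in the labels, so each p-value reflects array-to-array spread that may be purely technical. The tissue is bulk, so fewer cells of a type and less RNA per cell cannot be told apart. Correlations between arrays were 0.994 to 0.996 within a group, 0.992 to 0.996 between times of a construct, and 0.918 to 0.954 between constructs. Hif1a itself lay between -5.20 and 5.22 in overexpression cultures, between -7.15 and 1.40 in knockdown cultures, and between 21.3 and 42.7 in control cultures. Its probe was thus above 16 on 6 of 6 control arrays and on none of the other 10, and it was lower than control in both, by limma: -0.53 ± 0.0791 under overexpression (adjusted p = 8.49e-06) and -0.59 ± 0.0685 under knockdown (adjusted p = 1.71e-07). Between overexpression and knockdown the difference was 0.07 ± 0.0791 (adjusted p = 0.472). The probe is a mouse sequence that may not read the human cDNA, so the level in overexpression cultures does not check the transgene. Pdk1, the kinase named above, differed from control by 1.73 ± 0.0834 in overexpression cultures (adjusted p = 2.42e-13) and by -0.59 ± 0.0722 in knockdown cultures (adjusted p = 3.58e-07).

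Promoter sequence was available for 64 of the members, and it is shown for 3 of the genes whose levels differed most between constructs: the 250 bases before the start of transcription, from RefSeq on GRCm38.p6, read 5′ to 3′ on the gene's strand. Capitals mark matches, on either strand, to ACGTG or GCGTG (the core bases bound by HIF), to the palindromic site of the nuclear respiratory factor NRF-1, to CCGGAAG (GABP) or to AAGATGG (YY1). Cox7a1 lies at chr7:30183921-30184170 on the plus strand, Cox6b2 at chr7:4753095-4753344 on the minus strand and Ndufs6 at chr13:73328483-73328732 on the minus strand.
Cox7a1: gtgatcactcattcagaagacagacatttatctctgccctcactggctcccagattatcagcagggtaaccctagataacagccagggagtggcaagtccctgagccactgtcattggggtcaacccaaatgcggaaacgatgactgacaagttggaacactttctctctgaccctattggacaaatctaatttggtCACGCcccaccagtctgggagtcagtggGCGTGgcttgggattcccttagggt
Cox6b2: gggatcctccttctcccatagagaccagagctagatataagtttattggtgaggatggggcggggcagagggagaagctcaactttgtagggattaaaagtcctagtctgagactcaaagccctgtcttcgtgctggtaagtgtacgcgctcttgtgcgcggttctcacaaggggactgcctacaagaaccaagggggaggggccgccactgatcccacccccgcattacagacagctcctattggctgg
Ndufs6: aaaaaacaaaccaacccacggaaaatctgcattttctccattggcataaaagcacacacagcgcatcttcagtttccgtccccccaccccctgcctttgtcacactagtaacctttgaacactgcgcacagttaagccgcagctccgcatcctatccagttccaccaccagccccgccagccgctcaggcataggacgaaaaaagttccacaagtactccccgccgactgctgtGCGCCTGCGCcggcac
Cox7a1 held GCGTG on 2 occasions, beginning 53 and 25 bases before the start. Ndufs6 held the NRF-1 motif 16 bases before the start, and no motif searched was found in the Cox6b2 window. No promoter sequence was available for Cox4i2 and Cox6a2. Ndufa3 (1 ACGTG and 1 GCGTG) and Atp5pb (2 ACGTG), not printed, fell more than Ndufs6 under knockdown and held HIF cores without the NRF-1 motif. The same held for Ndufv1 (2 ACGTG), which fell less, while Atp5o held no motif searched. Among the 70 promoters of members, 38 (54.3%) held either HIF core, against 38.6% of all 32851 promoters of this length. The NRF-1 motif stood in 11 of the 70 (15.7%, against 3.74% of all promoters), the GABP motif in 13 (18.6%, against 6.91%), and the YY1 motif in 2 (2.86%, against 4.49%). A match is a description of letters and not evidence of binding.

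The largest rises over control among the members were those of the tissue forms of complex IV. The construct in which each stood highest was not the same for all. Cox4i2 and Cox7a1 were highest in overexpression cultures, while Cox6b2 and Cox6a2 were highest in knockdown cultures. Cox6b2 was higher than control under overexpression too (1.84), and Cox4i2 and Cox7a1 were slightly higher under knockdown (0.32 and 0.31). Falls could be as wide: under knockdown Ndufa3 differed by -1.92, against 1.88 for Cox6a2. Of 7 such isoforms on the array, 4 were above background on enough arrays to be tested. Cox7b2, Cox8b and Cox8c were not, with no probe above 16 on at least 2 arrays.

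Cox4i2, the hypoxia-linked form of subunit 4, had intensities of 374 (uninjured), 372 and 471 (3 h) and 519 (12 h) in overexpression cultures. In knockdown cultures its lowest, median and highest values were 4.52, 8.12 and 20.0, and in control cultures they were -10.8, -3.61 and -0.862. The overexpression arrays stood far above all others, 2 of 6 knockdown arrays were above 16, and no control array was. The rise under overexpression was 3.01 ± 0.0776 (adjusted p = 6.09e-18), or at least 26.8-fold over the background limit of 16. Under knockdown the difference was 0.32 ± 0.0672 (adjusted p = 3.39e-04), a call that was lost when values were floored at 16 (0.10, adjusted p = 0.230). The common form, Cox4i1, differed from control by 0.06 ± 0.0799 in overexpression cultures (adjusted p = 0.579) and by 0.01 ± 0.0692 in knockdown cultures (adjusted p = 0.932).

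Cox7a1, the muscle form of subunit 7a, read 541 (uninjured), 555 and 659 (3 h) and 607 (12 h) in overexpression cultures. Its lowest, median and highest values were 56.7, 92.5 and 116 in knockdown cultures and 49.5, 53.0 and 78.2 in control cultures. Every overexpression array was above every other array, while knockdown and control arrays overlapped. Overexpression raised it by 2.39 ± 0.0921, which is 5.24-fold on the offset scale (adjusted p = 6.16e-15), and knockdown by 0.31 ± 0.0798 (adjusted p = 0.00206). The common form, Cox7a2, moved the other way under overexpression. It had lowest, median and highest values of 127, 233 and 306 in overexpression cultures, 382, 463 and 559.8 in knockdown cultures and 273, 365 and 447 in control cultures. Each construct overlapped the controls but not the other construct, and the differences from control were -0.66 ± 0.130 under overexpression (adjusted p = 1.90e-04) and 0.30 ± 0.112 under knockdown (adjusted p = 0.0247). The knockdown call for Cox7a2 was lost when any 1 of 6 arrays was left out (knockdown uninjured 2, knockdown 3 h 1, knockdown 12 h 2, and the first control array at each time), with differences of 0.20 to 0.28 and adjusted p from 0.0572 to 0.124, and with values floored at 16 (0.36, adjusted p = 0.109).

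Cox6b2, the testis form of subunit 6b, showed the largest difference of any member. Its values in overexpression cultures were 316 (uninjured), 403 and 295 (3 h) and 294 (12 h). Knockdown cultures had lowest, median and highest values of 1179.7, 1470.1 and 1828, and control cultures 26.2, 43.9 and 57.1. The 3 constructs did not overlap. Knockdown raised it by 3.84 ± 0.0850, 14.3-fold on the offset scale (adjusted p = 8.05e-19), and overexpression by 1.84 ± 0.0981, or 3.58-fold (adjusted p = 1.25e-12). A second, dim probe of Cox6b2 (mean intensity 8.96) differed by 0.42 under knockdown (adjusted p = 3.37e-05) and by 0.04 under overexpression (adjusted p = 0.694), in a limma fit over all kept probes. Cox6b1, the common form, rose by 0.31 ± 0.0629 under knockdown (adjusted p = 2.25e-04), against 0.06 ± 0.0727 under overexpression (adjusted p = 0.504).

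Cox6a2, the heart and skeletal muscle form of subunit 6a, was near background in all but the knockdown cultures. Overexpression cultures read 4.81 (uninjured), 11.8 and 21.0 (3 h) and 15.8 (12 h). The lowest, median and highest values were 165, 229.8 and 357 in knockdown cultures and 6.73, 15.96 and 23.7 in control cultures. All knockdown arrays were above all others, 1 of 4 overexpression and 3 of 6 control arrays being above 16. The knockdown difference was 1.88 ± 0.0843 (adjusted p = 5.40e-14), against -0.05 ± 0.0974 under overexpression (adjusted p = 0.672). Cox6a1, the common form, rose by 0.31 ± 0.0706 under knockdown (adjusted p = 7.21e-04) and differed by 0.06 ± 0.0815 under overexpression (adjusted p = 0.588).

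**Figure D1:**
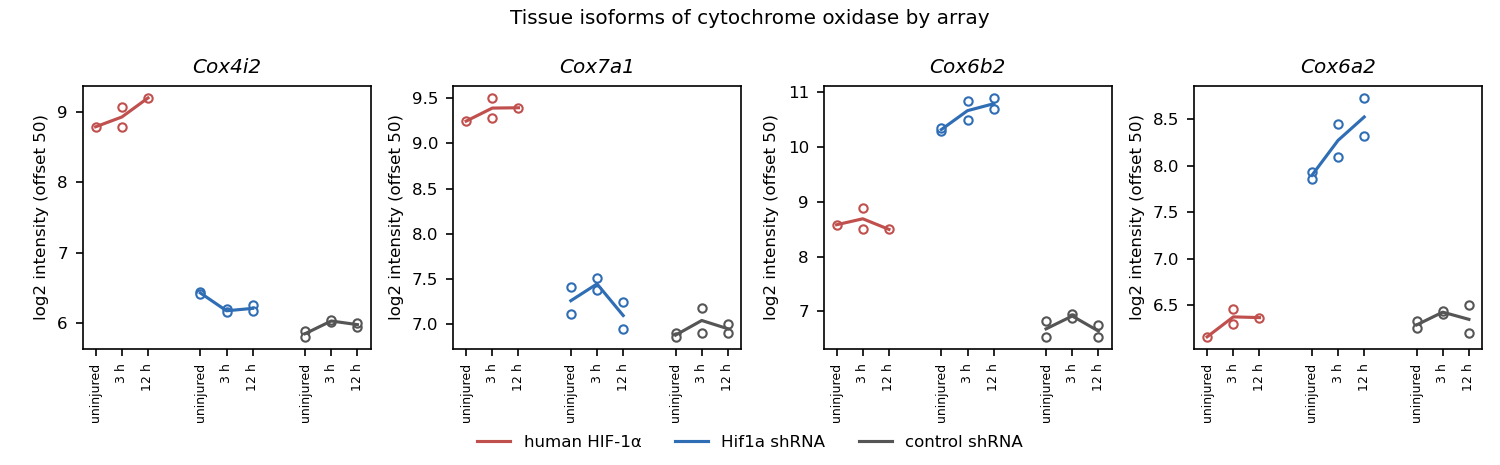
Log2 intensity (vertical axis, offset 50) of the 4 tested tissue isoforms of cytochrome c oxidase, with a point for each array and a line through the group means, in human HIF-1α, Hif1a shRNA and control shRNA cultures from left to right and by time within each. Cox4i2 and Cox7a1 stand highest in the human HIF-1α cultures at every time, and Cox6b2 and Cox6a2 in the Hif1a shRNA cultures.

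Markers of several cell types differed between constructs as well, while neither of the 2 tested germ cell genes was called in any construct comparison. The summed intensity of 8 striated muscle genes was 154 to 179 in overexpression cultures, 507 to 628 in knockdown cultures and 119 to 168 in control cultures. Most of this was Acta1, the skeletal muscle actin, with mean intensities of 90.7, 527 and 99.1 in the same order, while Actc1, Tnnt3 and Ckm were never above 16. For 6 germ cell genes the sums were 6.58 to 46.3, 16.6 to 47.1 and 14.6 to 34.5, and Ddx4, Dazl, Sycp3 and Prm1 were never above 16. The sums over 11 neuronal genes were 37663 to 42492 in overexpression cultures, 43460 to 46613 in knockdown cultures and 58803 to 64304 in control cultures, with Nefl never above 16. The neuronal sum follows a few bright probes and its genes were mixed: of 10 tested, 6 were lower and 3 higher under overexpression, and 5 lower and 3 higher under knockdown. Isl1 was higher than control (0.88 under overexpression and 0.97 under knockdown), as was Ntrk2 (0.93 under overexpression and 0.29 under knockdown). The mean intensities of Ntrk2 were below 16 in knockdown and control cultures (14.0 and -0.986). Prph was lower (-1.30 under overexpression and -1.38 under knockdown), as were Calca (-0.25 and -2.09) and Scn10a (-0.77 and -1.44). Tac1 was higher under overexpression (0.32) and lower under knockdown (-1.66). Stmn2 was lower under overexpression (-1.54), against 0.08 under knockdown. Over 7 Schwann cell and satellite glia genes the sums were 7324 to 8628, 7631 to 9486 and 16868 to 19884, with Fabp7 and Cdh19 never above 16. That sum was almost wholly Ngfr, a neurotrophin receptor (mean intensities 7715, 7999 and 18326), while Dhh, a ligand of Schwann cells, was higher than control (1.17 under overexpression and 1.32 under knockdown). For 8 fibroblast genes the sums were 3239 to 3642, 6878 to 8596 and 4286 to 4831, with Col1a1, Col3a1 and Lum never above 16. Most of that sum was Vim (mean intensities 3186, 7344 and 4428). Of the 4 tested, Vim (-0.47 under overexpression and 0.72 under knockdown), Dcn (-0.60 and 1.13) and Pdgfra (-0.35 and 1.84) moved with the sum. Mean intensities below 16 were those of Dcn in overexpression cultures (9.19) and Pdgfra in overexpression (-7.74) and control cultures (9.30). Twist2 went the opposite way (1.196 under overexpression and -0.42 under knockdown). Macrophage genes (7) summed to 204 to 308, 127 to 186 and 98.1 to 160, and endothelial genes (6) to 46.1 to 80.9, 44.3 to 72.5 and 10.9 to 68.0. Cx3cr1 and Itgam of the macrophage list and Cdh5 and Cldn5 of the endothelial list were never above 16. The part of cell composition in the results on complexes and isoforms was not tested.

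Across all 73 tested members, falls outnumbered rises against control under both constructs. In knockdown cultures 35 members (47.9%) were called lower and 17 (23.3%) higher, against 28.3% and 31.3% of all genes, and the median difference was -0.14 for members and -0.00 for all genes. Differences of at least 2-fold were called for 8 members (10.96%, against 8.72% of all genes). In overexpression cultures 31 members (42.5%) were lower and 9 (12.3%) higher, against 29.4% and 25.8% of all genes, with medians of -0.15 and -0.02. Only 4 of the members tested (5.48%) passed 2-fold there, against 8.28% of all genes. Members are bright genes on this array (median of the mean intensities 3308, against 149 for all genes tested), and the offset damps the differences of dim ones. The part of brightness in these shares was not tested. Both comparisons share the control arrays, so each is given on its own below.

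In the contrast of the constructs with each other, taken from the same fit of all 16 arrays, 25 members (34.2%) were higher in overexpression than in knockdown cultures and 25 (34.2%) were lower, against 28.8% and 34% of all genes. At least 2-fold differences were called for 8 members (10.96%, against 13.6%). With cyclic loess in place of quantile normalization the split was 26 higher and 16 lower.

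**Figure D2:**
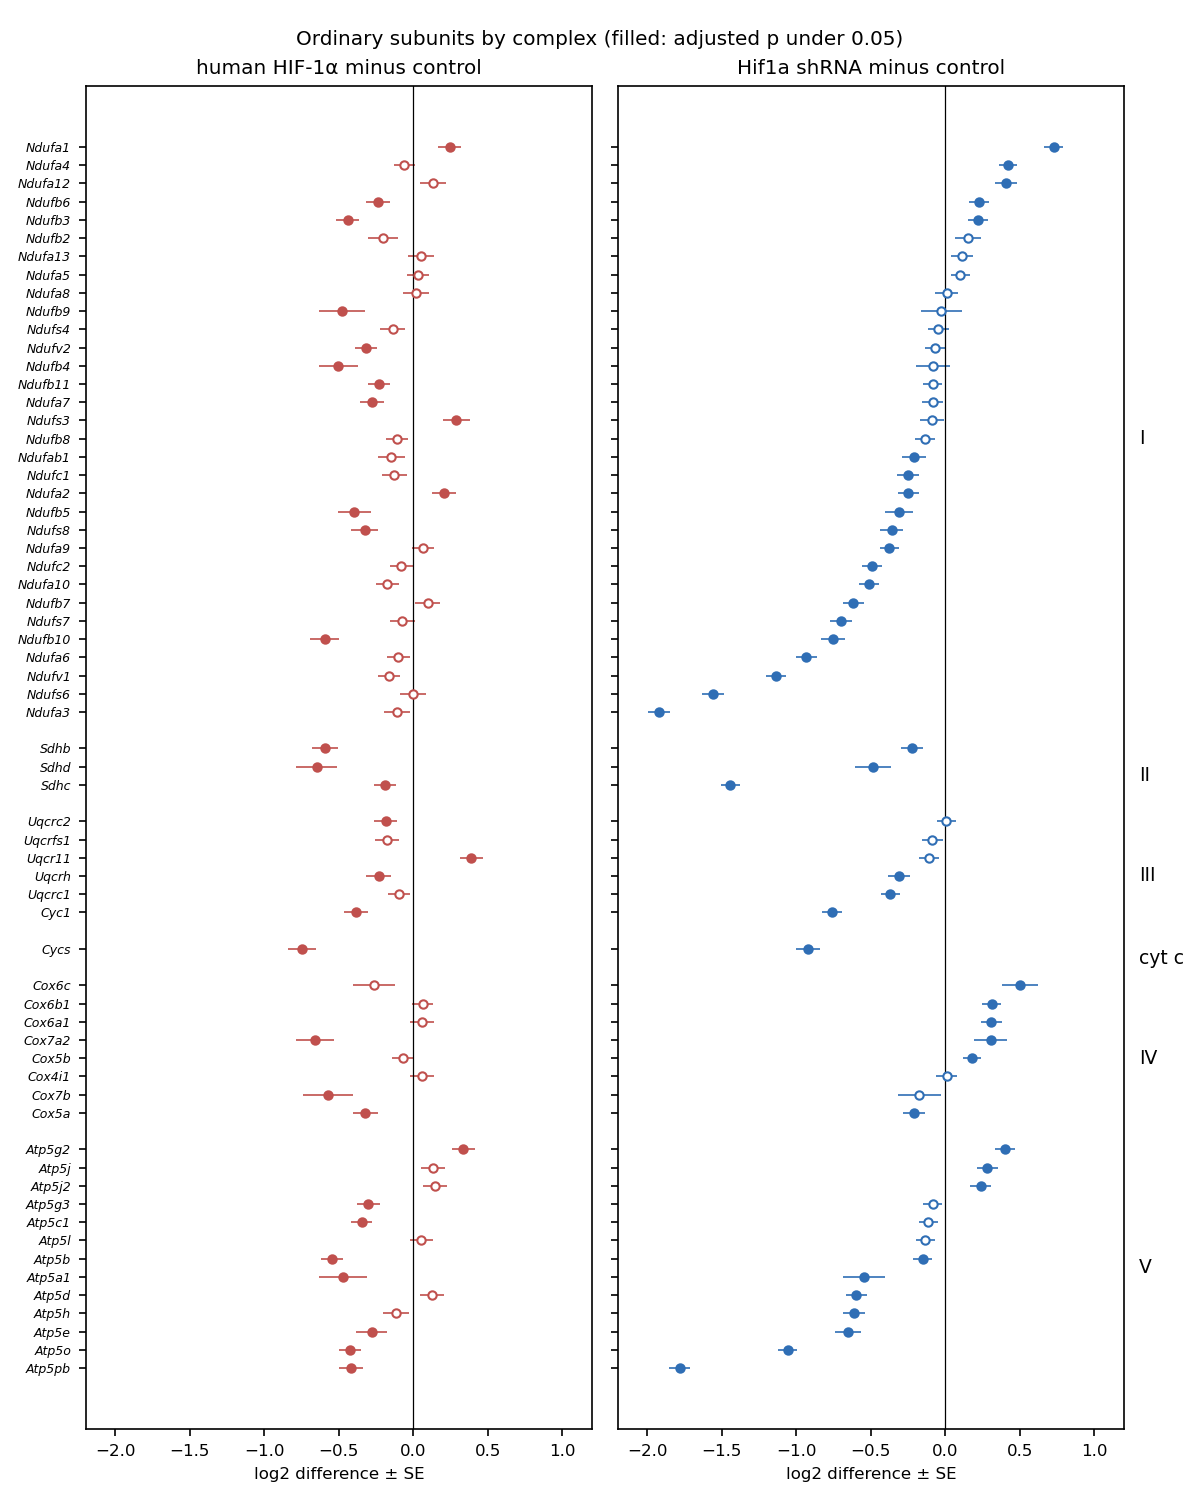
Log2 difference from control shRNA cultures (horizontal axis, ± SE) of 63 of the 64 ordinary members, cytochrome c included, in human HIF-1α cultures (left) and Hif1a shRNA cultures (right), ordered within each complex by the knockdown difference, with filled points for an adjusted p under 0.05. Among these genes, falls past 1 on this scale stand only in the knockdown panel, and most complex IV points lie right of 0 there.

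Complex I contributed 33 of the tested members, 6 of them conserved core subunits that carry out the catalysis and 27 accessory ones. Knockdown lowered 16 and raised 5 of them, with 12 not called (median -0.14). That is 48.5% lower and 15.2% higher, against 28.3% and 31.3% of all genes. Overexpression lowered 11 and raised 3, with 19 not called (median -0.13). The share lower there, 33.3%, was near the 29.4% of all genes, while 9.09% were higher, against 25.8%. For the accessory subunits alone the share lower under overexpression was 29.6%. Among the core subunits 4 of 6 fell and none rose under knockdown, and 3 fell and 1 rose under overexpression. Ndufs1, another core subunit, had no probe above 16 on at least 2 arrays. On single arrays the median over the 33 subunits, relative to the control mean, ran from -0.18 to -0.07 in overexpression cultures, -0.25 to -0.15 in knockdown cultures and -0.03 to 0.02 in control cultures, so that neither construct overlapped the controls.

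Under knockdown, 3 complex I subunits fell at least 2-fold. Ndufa3, a small membrane subunit, had lowest, median and highest intensities of 3639.6, 3906 and 4126 in overexpression cultures, 926, 1094 and 1196 in knockdown cultures and 3979, 4166 and 4822 in control cultures. Knockdown arrays lay below all others, and overexpression and control arrays overlapped. Ndufa3 fell by 1.92 ± 0.0742 under knockdown, 3.79-fold (adjusted p = 4.65e-15), against -0.11 ± 0.0857 under overexpression (adjusted p = 0.289).

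Ndufs6, a zinc-binding accessory subunit of the peripheral arm whose promoter is printed above, followed the same order. Its lowest, median and highest values were 7927, 8086 and 8890.5 in overexpression cultures, 2427, 2804 and 3039 in knockdown cultures and 7335, 8178 and 9081 in control cultures, with knockdown apart and the other 2 overlapping. The differences from control were -0.00 ± 0.0867 under overexpression (adjusted p = 0.979) and -1.56 ± 0.0751 under knockdown, 2.95-fold (adjusted p = 1.58e-13). Ndufv1, the core subunit that binds NADH and the flavin, had 5859, 6417 and 6525 in overexpression cultures, 2989, 3193 and 3374 in knockdown cultures and 6726, 7049 and 7672 in control cultures (lowest, median and highest). No groups overlapped, and the differences were -0.16 ± 0.0767 (adjusted p = 0.0766) under overexpression and -1.14 ± 0.0664 under knockdown, 2.20-fold (adjusted p = 3.62e-12).

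Of the accessory subunits, Ndufa6, a LYR-motif protein, fell by 0.93 ± 0.0694 under knockdown (adjusted p = 1.81e-10), against -0.10 ± 0.0801 under overexpression (adjusted p = 0.305). Ndufb10, a disulfide-bearing subunit of the intermembrane side, was lower under both, with differences of -0.60 ± 0.0958 under overexpression (adjusted p = 1.91e-05) and -0.75 ± 0.0830 under knockdown (adjusted p = 8.24e-08). Ndufs3, a core subunit, rose by 0.29 ± 0.0900 under overexpression (adjusted p = 0.0103), a call lost without the uninjured overexpression array (0.25, adjusted p = 0.0548), and differed by -0.09 ± 0.0780 under knockdown (adjusted p = 0.338).

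Rises within complex I were fewer. Ndufa1, an X-linked membrane subunit needed for assembly, had lowest, median and highest values of 6636, 6808 and 7731 in overexpression cultures, 9214, 9688 and 10042 in knockdown cultures and 5475, 5780.1 and 6372 in control cultures, with no overlap between the 3 constructs. It rose by 0.24 ± 0.0751 under overexpression (adjusted p = 0.00931) and by 0.73 ± 0.0651 under knockdown (adjusted p = 3.65e-09). Ndufa12, an accessory subunit, rose by 0.41 ± 0.0749 under knockdown (adjusted p = 7.24e-05), against 0.13 ± 0.0865 under overexpression (adjusted p = 0.212). Ndufa4, counted with complex I by its symbol although the protein is now known as a complex IV subunit, rose by 0.42 ± 0.0610 under knockdown (adjusted p = 4.41e-06), against -0.06 ± 0.0704 under overexpression (adjusted p = 0.472). Ndufb3 was lower in overexpression than in knockdown cultures (difference -0.66, adjusted p = 1.47e-07). For Ndufs4, whose chosen probe was not called, 2 other probes were lower under overexpression, with differences of -0.33 (adjusted p = 0.00557) and -0.68 (adjusted p = 1.93e-04) in the fit over all kept probes.

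**Figure D3:**
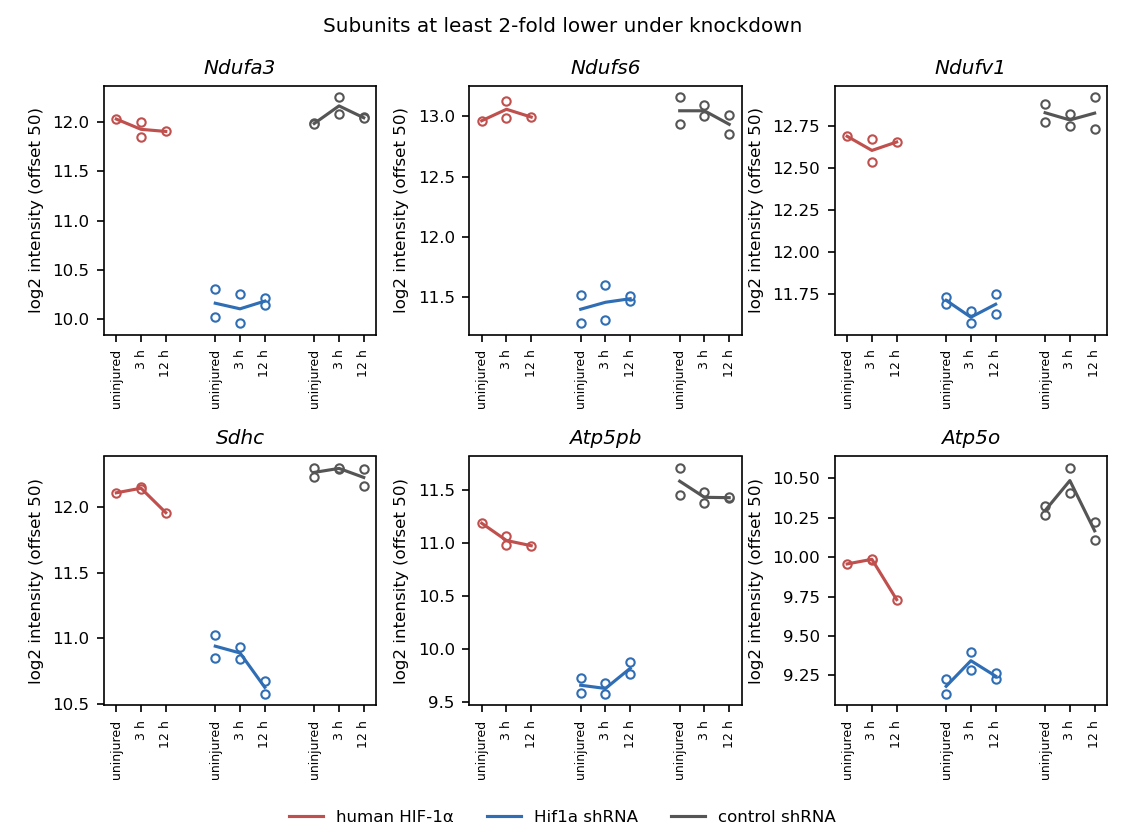
Log2 intensity (vertical axis, offset 50) of the 6 subunits lowered at least 2-fold under knockdown, by array and time, in human HIF-1α, Hif1a shRNA and control shRNA cultures from left to right; lines join group means. All Hif1a shRNA arrays lie below all others in each panel, whatever the time after the cut.

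Complex II, the only complex whose subunits are all encoded in the nucleus, was the one complex in which every tested member moved the same way. Each of its 3 tested subunits was called lower under each construct (medians -0.59 under overexpression and -0.48 under knockdown). It also had the fewest tested members of any complex, and Sdha is not analysed here. Which subunit was lowest differed. Sdhc, a membrane anchor, had lowest, median and highest intensities of 3913, 4391 and 4491 in overexpression cultures, 1463, 1777 and 2024 in knockdown cultures and 4516, 4944 and 4976 in control cultures, without overlap between groups. It differed by -0.19 ± 0.0751 under overexpression (adjusted p = 0.0361) and by -1.44 ± 0.0651 under knockdown, 2.72-fold (adjusted p = 5.62e-14). The overexpression call for Sdhc was lost with cyclic loess (-0.14, adjusted p = 0.113). It was also lost without any 1 of 7 arrays (overexpression uninjured 1, 3 h 2 and 12 h 1, control uninjured 2, both control arrays at 3 h, and control 12 h 1), with differences of -0.21 to -0.15 and adjusted p from 0.0555 to 0.167.

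Sdhb, the iron-sulfur subunit, had 1318, 1535 and 1614 in overexpression cultures, 1719, 1899 and 2347 in knockdown cultures and 2064, 2228 and 2626 in control cultures (lowest, median and highest), and only the overexpression arrays were clear of the controls. Its differences were -0.59 ± 0.0858 under overexpression (adjusted p = 4.88e-06) and -0.23 ± 0.0743 under knockdown (adjusted p = 0.0126). The knockdown call was lost without the first uninjured knockdown array (-0.16, adjusted p = 0.0633) and with the mean of all kept probes (-0.13, adjusted p = 0.0796). A second bright probe gave -0.63 under overexpression and -0.24 under knockdown, while a dim one (mean intensity 11.2) gave 0.22 under overexpression (adjusted p = 0.0372), the single case of probes called in opposite directions. Sdhd, the other anchor, had 91.6, 112 and 272 in overexpression cultures, 123, 146 and 178 in knockdown cultures and 166, 219.8 and 326 in control cultures, all overlapping, with differences of -0.65 ± 0.139 (adjusted p = 4.58e-04) under overexpression and -0.48 ± 0.121 (adjusted p = 0.00160) under knockdown. Set directly against each other, Sdhc was 1.25 higher (adjusted p = 4.73e-12) and Sdhb was lower (difference -0.37, adjusted p = 7.87e-04) in overexpression than in knockdown cultures.

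Complex III had 6 tested members, 3 lower and 1 higher under overexpression (median -0.18) and 3 lower and none higher under knockdown (median -0.21). Uqcrq had no probe above 16 on at least 2 arrays. Cyc1, the cytochrome c1 that hands electrons to cytochrome c, had lowest, median and highest intensities of 2666, 2702 and 2766 in overexpression cultures, 1958, 2048 and 2219 in knockdown cultures and 3269, 3554 and 3806 in control cultures. No groups overlapped, and the falls were 0.39 ± 0.0797 under overexpression (adjusted p = 3.20e-04) and 0.76 ± 0.0690 under knockdown (adjusted p = 4.52e-09). The difference of 0.37 between overexpression and knockdown was called too (adjusted p = 3.36e-04). Uqcr11, a small accessory subunit, was the riser: 12246, 12516 and 13775 in overexpression cultures, 8338, 9068 and 10340.4 in knockdown cultures and 9050.5, 9922 and 10438 in control cultures. All overexpression arrays were above the controls (0.39 ± 0.0770, adjusted p = 2.14e-04), while knockdown differed by -0.11 ± 0.0667 (adjusted p = 0.169).

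Cycs, the somatic cytochrome c, which carries electrons from complex III to complex IV and also triggers apoptosis when released, was lower under both constructs. Its lowest, median and highest intensities were 51.8, 64.8 and 98.1 in overexpression cultures, 42.8, 48.5 and 67.3 in knockdown cultures and 138, 164 and 176 in control cultures, both constructs lying below all controls. Cycs fell by 0.75 ± 0.0930 under overexpression (adjusted p = 6.53e-07) and by 0.92 ± 0.0805 under knockdown (adjusted p = 2.35e-09). A second Cycs probe gave -0.75 under overexpression (adjusted p = 1.09e-05) and -0.15 under knockdown (adjusted p = 0.211), so the size of the knockdown difference depended on the probe.

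Among the 8 common subunits of complex IV, knockdown raised 5 and lowered 1 (median 0.24), and overexpression raised none and lowered 3 (median -0.17). Over all genes, 31.3% were higher and 28.3% lower under knockdown, and 25.8% higher and 29.4% lower under overexpression, the shares against which the counts for each complex are to be read. Directly compared, 6 of 8 were lower and none higher in overexpression than in knockdown cultures (median -0.25), where 34% of all genes were lower and 28.8% higher. With cyclic loess the calls for Cox6a1 (-0.16, adjusted p = 0.0869) and Cox6b1 (-0.16, adjusted p = 0.0689) in that comparison were lost, and the Cox6a1 call was also lost without the uninjured overexpression array (-0.21, adjusted p = 0.0733). The median over the 8 subunits on single arrays ran from -0.27 to -0.03 in overexpression cultures, 0.13 to 0.31 in knockdown cultures and -0.10 to 0.06 in control cultures. Knockdown arrays lay above all others, and overexpression and control arrays overlapped.

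Cox6c, a small membrane subunit, had lowest, median and highest intensities of 2278, 3119 and 3908 in overexpression cultures, 3999, 5014 and 7335 in knockdown cultures and 3090.3, 3627 and 4295 in control cultures. Each construct overlapped the controls but not the other construct, and the differences from control were -0.26 ± 0.140 under overexpression (adjusted p = 0.119) and 0.50 ± 0.121 under knockdown (adjusted p = 0.00127). Between overexpression and knockdown it differed by -0.76 (adjusted p = 6.70e-05). Cox7a2, whose values stand beside those of Cox7a1, differed by -0.96 (adjusted p = 1.33e-06) in the same direct comparison. Cox7b fell by 0.57 ± 0.166 under overexpression (adjusted p = 0.00583), a call lost without the uninjured overexpression array (-0.46, adjusted p = 0.0589) and with a trended, robust prior (adjusted p = 0.0619).

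**Figure D4:**
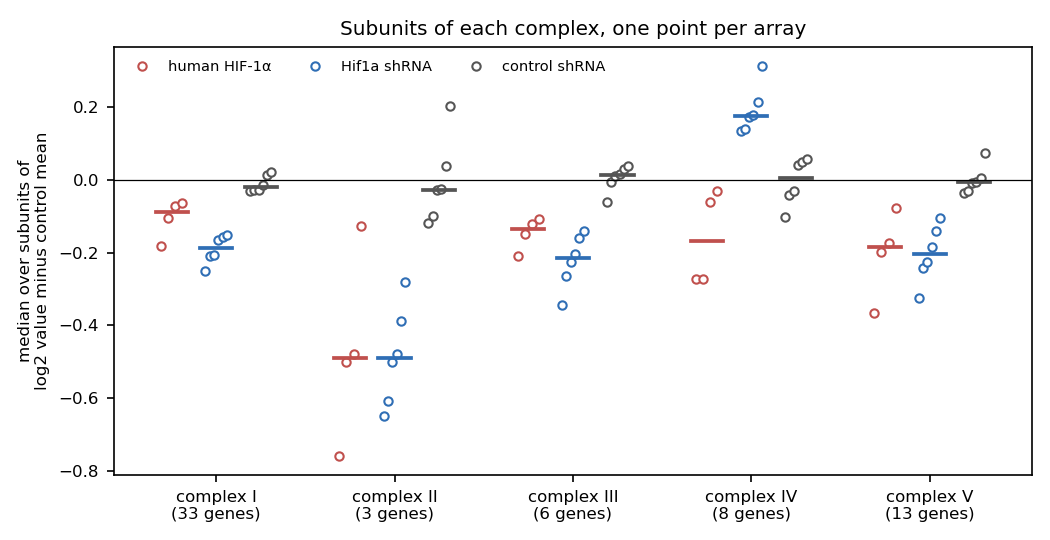
Median over the subunits of each complex of the log2 value minus the control mean (vertical axis), with a point for each array and a bar at the median of the construct's arrays, for human HIF-1α, Hif1a shRNA and control shRNA cultures from left to right within each complex. In complex IV all Hif1a shRNA arrays lie above 0.1, whereas in complexes I, II, III and V they lie below 0.

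ATP synthase had 13 tested members, of which overexpression lowered 7 and raised 1 (median -0.28) and knockdown lowered 7 and raised 3 (median -0.15). Atp5k had no probe above 16 on at least 2 arrays. Array medians ran from -0.36 to -0.08 in overexpression cultures, -0.33 to -0.10 in knockdown cultures and -0.04 to 0.07 in control cultures, so both constructs lay below the controls. The largest falls under knockdown were in 2 subunits of the peripheral stalk that holds the catalytic head still.

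Atp5pb, subunit b of that stalk, had lowest, median and highest intensities of 1946, 2017 and 2266 in overexpression cultures, 696, 766 and 872 in knockdown cultures and 2595, 2726 and 3288 in control cultures. The 3 groups did not overlap, and the differences were -0.42 ± 0.0791 under overexpression (adjusted p = 1.20e-04) and -1.78 ± 0.0685 under knockdown, 3.44-fold (adjusted p = 4.32e-15). Atp5o, the subunit that joins the stalk to the head, read 783, 936 and 948 in overexpression cultures, 495, 541 and 609 in knockdown cultures and 1037, 1189.8 and 1449 in control cultures, again without overlap. It differed by -0.42 ± 0.0747 under overexpression (adjusted p = 5.64e-05) and by -1.06 ± 0.0647 under knockdown, 2.08-fold (adjusted p = 7.76e-12). Of the other stalk subunits, Atp5h differed by -0.12 ± 0.0857 under overexpression (adjusted p = 0.260) and fell by 0.62 ± 0.0742 under knockdown (adjusted p = 3.14e-07). Atp5j differed by 0.13 ± 0.0795 under overexpression (adjusted p = 0.167) and rose by 0.28 ± 0.0689 under knockdown (adjusted p = 0.00138), so the stalk did not move as one.

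Atp5b, the catalytic beta subunit, ranged from 23767 to 26457 in overexpression cultures, 31498 to 35101 in knockdown cultures and 34333 to 39491 in control cultures. Overexpression arrays were below all others, with a difference of -0.55 ± 0.0729 (adjusted p = 1.75e-06), against -0.15 ± 0.0631 under knockdown (adjusted p = 0.0429). Atp5g2, which encodes the c subunit of the rotor, rose under both constructs, by 0.33 ± 0.0771 under overexpression (adjusted p = 9.52e-04) and 0.40 ± 0.0668 under knockdown (adjusted p = 2.34e-05), with every array of either above the controls. Atp5g3, which encodes the same mature c subunit, differed by -0.30 ± 0.0769 under overexpression (adjusted p = 0.00211) and -0.09 ± 0.0666 under knockdown (adjusted p = 0.280).

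The naming rule also caught 5 genes that are not subunits. Ndufaf1, an assembly factor of complex I, fell by 0.36 ± 0.0768 under knockdown (adjusted p = 4.16e-04), against 0.12 ± 0.0887 under overexpression (adjusted p = 0.254). Dmac2l, once named as a coupling factor of ATP synthase, had lowest, median and highest intensities of 201, 217 and 280.3 in overexpression cultures, 404, 459 and 531 in knockdown cultures and 486, 576 and 630.2 in control cultures. Overexpression arrays lay below all others. The fall of Dmac2l by 1.13 ± 0.0884 under overexpression (2.19-fold, adjusted p = 6.15e-10) was the only fall of a member past 2-fold in that comparison, and under knockdown the difference was -0.27 ± 0.0766 (adjusted p = 0.00418). Emc8, a subunit of the membrane protein complex of the endoplasmic reticulum, had 391, 427 and 457 in overexpression cultures, 132, 192 and 222 in knockdown cultures and 292, 329.7 and 359 in control cultures, no groups overlapping. It was higher under overexpression (0.29 ± 0.0812, adjusted p = 0.00500) and lower under knockdown (-0.65 ± 0.0703, adjusted p = 5.99e-08). Cox7a2l, which takes part in joining complexes III and IV, and Dmac2, a factor in complex I assembly, were lower under overexpression, with differences of -0.48 (adjusted p = 4.32e-04) and -0.35 (adjusted p = 0.00369), against -0.30 (adjusted p = 0.00709) and -0.00 (adjusted p = 0.992) under knockdown.

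In the direct comparison of the constructs the members furthest apart were the isoforms and the subunits that knockdown lowered. Cox4i2 was 2.70 and Cox7a1 2.08 higher in overexpression than in knockdown cultures (adjusted p = 3.44e-17 and 3.36e-14). Cox6b2 (-2.00, adjusted p = 1.76e-13) and Cox6a2 (-1.93, adjusted p = 2.69e-13) were lower. Among ordinary subunits Ndufa3 (1.81), Ndufs6 (1.56), Atp5pb (1.36) and Ndufv1 (0.98) were higher in overexpression cultures, with adjusted p of 9.88e-14, 1.34e-12, 2.70e-12 and 3.81e-10. Ndufa1 (-0.48) and Ndufa4 (-0.48) were lower there (adjusted p = 9.09e-06 and 4.10e-06).

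The cut itself left the members without a called change. At 3 h 0 of 73 members were called by limma, against 0.0359% of all genes (4 genes), and at 12 h 0 of 73, against 0.538% (60 genes). At an unadjusted p under 0.05 there were 2 members of 859 genes at 3 h and 12 of 1385 at 12 h. Differences from uninjured cultures ran from -0.12 to 0.24 at 3 h and from -0.45 to 0.30 at 12 h. The extremes were Cox6a2 at 3 h (0.24 ± 0.0911, adjusted p = 0.520) and Cox6c at 12 h (-0.45 ± 0.140, adjusted p = 0.160). The median standard error over members was 0.0762 at 3 h and 0.0815 at 12 h, which bounds what could be detected.

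No member's response to the cut was called as differing between constructs (F test over the 4 interaction terms in limma, 0 of 73, and 0% of all genes; 4 members and 741 genes at an unadjusted p under 0.05; smallest adjusted p among members 0.610, for Ndufb2). The construct differences at single times are given as values. In order of uninjured, 3 h and 12 h, Cox4i2 differed under overexpression by 2.94, 2.89 and 3.22. Cox6b2 differed under knockdown by 3.63, 3.74 and 4.14, Cox6a2 by 1.61, 1.85 and 2.18, and Ndufa3 by -1.83, -2.07 and -1.87.

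Genes that build, feed or regulate the chain were counted alongside. The shares of all genes were 29.4% lower and 25.8% higher under overexpression, and 28.3% lower and 31.3% higher under knockdown, and each list is given as shares of its tested genes. Of 27 tested assembly factors outside the naming rule, overexpression lowered 17 and raised 3 (63% lower, 11.1% higher, median -0.36) and knockdown lowered 11 and raised 6 (40.7% lower, 22.2% higher, median 0.00). Uqcc1, a factor for complex III, was -0.48 under overexpression and -1.78 under knockdown, and Sdhaf1, a factor for the iron-sulfur subunit of complex II, was -0.54 and -1.60 (adjusted p from 1.40e-15 to 1.86e-05). Cox17, the copper chaperone of complex IV, was -1.05 under knockdown (adjusted p = 1.31e-10). Sdhaf4, another complex II factor, fell by 0.86 under overexpression (adjusted p = 5.01e-09) and rose by 0.27 under knockdown (adjusted p = 0.00152).

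Of 15 tested genes of the tricarboxylic acid cycle and pyruvate dehydrogenase, which supply the electrons, overexpression lowered 11 and raised none (73.3% lower, 0% higher, median -0.58), and knockdown lowered 8 and raised 2 (53.3% lower, 13.3% higher, median -0.21). Dlat, the acetyltransferase of pyruvate dehydrogenase, was -1.47 under overexpression (adjusted p = 5.12e-12) and -1.63 under knockdown (adjusted p = 6.69e-14). Idh3a, the catalytic subunit of isocitrate dehydrogenase, fell by 1.51 under overexpression (adjusted p = 1.57e-11) and rose by 0.31 under knockdown (adjusted p = 0.00291). Of 5 other donors of electrons to ubiquinone, overexpression lowered 4 and raised 1 (80% lower, 20% higher) and knockdown lowered 2 and raised 1 (40% lower, 20% higher). Among them Gpd2, the mitochondrial glycerol phosphate dehydrogenase, was -1.41 under overexpression (adjusted p = 2.18e-12) and -0.40 under knockdown (adjusted p = 2.73e-05).

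Of 9 tested regulators of mitochondrial biogenesis, overexpression raised 6 and lowered 1 (11.1% lower, 66.7% higher, median 0.40). Knockdown raised 3 and lowered 2 (22.2% lower, 33.3% higher, median 0.12), near the shares of all genes. Ppargc1a and Ppargc1b, coactivators of the transcription of respiratory genes, went opposite ways under overexpression, with differences of 1.85 (adjusted p = 3.35e-11) and -1.40 (adjusted p = 1.56e-12). Tfam, which packages mitochondrial DNA and takes part in starting its transcription, fell by 0.76 under knockdown (adjusted p = 3.30e-09). Of 8 tested mitochondrial genes linked to HIF, overexpression raised 4 and lowered 2 (25% lower, 50% higher, median 0.51) and knockdown raised 2 and lowered 3 (37.5% lower, 25% higher, median -0.02). Mgarp, a mitochondrial protein known for a role in moving mitochondria along axons, rose by 6.21 under overexpression (adjusted p = 1.10e-21), against 0.09 under knockdown (adjusted p = 0.354).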

How the data were processed

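The deposited table holds array intensity values for 25697 probes in 16 samples, measured on Illumina mouse BeadChips. Per the submitters' processing notes GenomeStudio was used, and its version is not given in the sources used here. From the values themselves, the deposited intensities were already background-subtracted (27.2% below 0) and brought to one distribution across arrays (upper quartile 166 on each). A second deposited file with 32 value columns whose names match no sample was used for its symbols only.

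The deposited intensities were passed through normexp (offset 50) and quantile normalization in limma (3.58.1, under R 4.3.3) and taken to log2. Probes above 16 on at least 2 arrays were kept (15086), and the brightest probe by mean represented a gene. Symbols were updated with the GRCm38.p6 gene table, so that Atp5f1 is given as Atp5pb, Atp5s as Dmac2l, Atp5sl as Dmac2, Cox4nb as Emc8 and Uqcr as Uqcr11. One fit held a mean for each of 9 groups (7 residual and 13.2 prior degrees of freedom), so groups of 1 array borrow the spread of the others. Their number limits the precision. Comparisons were averaged over the 3 times. No set test was run.

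The members and lists were chosen with earlier results of these data known. Named in each construct comparison were the 8 members with the largest called rises and falls, complex II, the isoforms with their common forms, Cycs and Cyc1. Up to 4 called genes of each pathway list were eligible, and a few other members were named after their values were seen, to describe their class. Ndufa4l2, Cox8a and Sdha are not analysed here. Of the tested members, 1 enters the counts and is not reported here by name. The fit was tested on simulated data. By correlation, replicate numbers did not pair samples (correlations of deviations from -0.120 to 0.244, 7 of 21 pairs of groups over 0.1). Even so, the complex IV median of control cultures was higher on the second array at each time. It was -0.04 and 0.06 (uninjured), -0.03 and 0.05 (3 h) and -0.10 and 0.04 (12 h). Knockdown arrays were mixed in this, and overexpression cultures had a second array only at 3 h (-0.27 and -0.03). In the fit with a replicate block, the overexpression differences among the 61 that were followed all kept their direction and call. That block takes the same shift in all constructs. The part of an imbalance in control cultures alone, or in other genes, was not tested. Other normalizations, filters, priors and probe rules, a replicate block and the omission of each array were tried.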

Additional observations from a re-analysis of the deposited data

How the results depend on the processing

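Over 25 alternatives, 61 called differences of members were followed. They were the 8 largest rises and falls of each construct comparison. Called ones of complex II, the isoforms with their common forms, Ndufa4, Cycs and Cyc1 were added. Of their 1522 values, 1498 kept their direction and call, 24 kept the direction and lost the call, and 0 turned round. Most were thus strong calls picked from these data. Other differences named above, such as that of Atp5b under knockdown, were not followed. The lost calls are given beside the genes concerned (Cox4i2 and Cox7a2 and Sdhb under knockdown, Cox7b, Ndufs3 and Sdhc under overexpression, Cox6a1 and Cox6b1 between the constructs); the cause was not tested. The count of members lower in overexpression than in knockdown cultures was 16 with cyclic loess, against 25 with quantile normalization, and its cause was not tested. Leaving out each array in turn gave 16 to 18 members higher and 32 to 35 lower under knockdown, 7 to 9 higher and 25 to 32 lower under overexpression, and 24 to 26 higher and 19 to 26 lower in overexpression against knockdown cultures. The cut and the interaction gave 0 members under every alternative that was run. A replicate block was also fitted, although by correlation its numbers did not pair the samples. With it the counts were 17 higher and 35 lower under knockdown, 8 and 30 under overexpression, 25 and 23 between the constructs, and 0 for the cut. Cox4i2 had no value when a signal above 16 was asked of at least 8 arrays. Cyclic loess moved the split of all genes under overexpression to 3222 higher and 2897 lower, against 2881 and 3280. Signal near background limits what can be read of Cox4i2 and Cox6a2 where their arrays lie below 16.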
